A study of Mus musculus with 19 samples.

Results

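Opto and control libraries collected 5 min after activation are compared here, as tags of the RNA-binding protein FMRP on single transcripts. They are the 8 libraries whose titles give 5 minutes, 4 opto and 4 control, of 19 in the series. All 8 came from the CA1 field of the hippocampus of Camk2a-Cre x Fmr1 cTag mice. In these mice Cre recombinase, driven by the promoter of Camk2a, a gene of excitatory forebrain neurons, switches on a tag on FMRP, so that the purification draws on Cre-positive cells. The opto libraries came from tissue given AAV-ChR2, a viral vector for the light-gated channel channelrhodopsin-2, and the controls from tissue given AAV-Control. Acute slices were activated and then crosslinked with ultraviolet light in both groups. Among the other libraries, 8 are opto and control at 30 min and 3 carry noCre in their titles and treatment and stand for the background of the purification. Their other labels give the same Cre-positive genotype and cell type as the rest, so what these 3 libraries hold rests on the title and treatment. They held 887, 34 and 5557 tags, so most of the noCre pool is replicate 3. The labels used here do not say how many mice went into a library, so p-values measure the spread between libraries, which may be partly technical.

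FMRP, the product of Fmr1, is lost in fragile X syndrome. It binds many long neuronal mRNAs, among them mRNAs of synaptic proteins, and is known mainly as a repressor of their translation that associates with ribosomes. In CLIP a transcript gains tags when more FMRP lies on it or when more of it is present, and fewer cells and less RNA per cell cannot be told apart in such bulk tissue. Every value below is therefore a share of the FMRP tags of a library, not occupancy per molecule. The files name transcripts by Ensembl ID alone, and the gene table used alongside matched 0 of them. IDs therefore stand without a gene, position or sequence, and the Camk2a-Cre label could not be checked against marker genes.

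At 5 min no transcript passed the test between opto and control, and for 57 of the 58 most strongly tagged transcripts the 95% interval lay inside a 2-fold change. The 8 libraries held 1333280 tags on 43916 transcripts, 633779 in opto and 699501 in control. Opto replicates 1 to 4 held 256727, 98257, 194181 and 84614 tags. Control replicates 1 to 4 held 341445, 40173, 108993 and 208890 tags. The deepest library was thus 8.50-fold deeper than the shallowest, control replicate 2, and the groups overlapped in depth.

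Tags were spread over many transcripts. Of the 43916 transcripts, 6308 (14.4%) were listed in all 8 libraries, and these held 77.8% of the tags. At the other end 11754 transcripts (26.8%) were listed in a single library and held 0.977% of the tags. Transcripts listed in 1 group alone had at most 11 tags summed over its libraries. The 31 transcripts listed in 4 of 4 opto and 0 of 4 control libraries had at most 10 tags summed over the opto libraries. The 22 listed in 4 of 4 control and 0 of 4 opto libraries had at most 8.

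The number of different transcripts was then set on a common depth, as the number expected in 40173 tags drawn from each library. The opto libraries gave 11914, 11831, 11992 and 11888 transcripts, and the controls gave 11859, 10538, 11758 and 11883. Control replicate 2 was the low value, and the other 7 libraries lay within 11758 to 11992. The mean was 11906 ± 67.2 (SD, n = 4) in opto and 11509 ± 650 (SD, n = 4) in control. Opto was higher in 4 of 4 same-numbered pairs, by 397 on average, but the difference did not pass (exact two-sided permutation p = 0.114, smallest possible 0.0286, adjusted p = 0.457 over 4 library measures). Without control replicate 2 the difference was 73.1 (exact two-sided permutation p = 0.229).

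The 10 most tagged transcripts took 6.50% ± 1.18 of the tags in opto and 6.69% ± 1.73 in control (SD, n = 4, exact permutation p = 0.857). The 100 most tagged took 18.4% ± 0.800 and 19.2% ± 2.44 (SD, n = 4, exact permutation p = 0.743). Transcripts with no noCre tag took 48.5% ± 1.35 of the opto tags and 47.6% ± 2.82 of the control tags (SD, n = 4, exact permutation p = 0.686). For each of the 3 the adjusted p over the 4 measures was 0.857. Control replicate 2 had the most extreme value in all 3 as well, with 8.97%, 22.7% and 43.5%. Without it the differences, opto minus control, changed sign to 0.574, 0.385 and -0.457 percentage points, and the first also changed sign without opto replicate 1 (0.253) or opto replicate 3 (0.0347).

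Libraries resembled each other as much across groups as within them. For 459 transcripts averaging 50 tags or more at 5 min, the correlation of log2 CPM was 0.844 to 0.954 within opto and 0.784 to 0.940 within control. CPM are tags per 1000000 on TMM-scaled totals of the tested transcripts. Between opto and control the correlation was 0.849 to 0.978 for libraries of the same number and 0.770 to 0.959 for libraries of different numbers. The low ends of the 3 ranges with controls came from control replicate 2. Without it the correlation was 0.923 to 0.940 within control. Between the groups it was then 0.930 to 0.978 for the same number and 0.831 to 0.959 for different numbers. The points of these correlations are transcripts, and the libraries differ in depth.

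The transcripts with the most FMRP tags showed the size of difference the libraries can resolve in a fit that does not use the pairs. The 8 most tagged held 5292 to 16053 tags each, and their log2 fold changes, opto over control, ran from -0.16 to 0.11. None of the 8 was higher or lower in all 4 pairs, and in none were the groups apart. The 4 described here are those with the most tags on either side of 0.

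ENSMUST00000182010 had the most tags of all. Its level was 13014, 24065, 18552 and 25430 CPM in opto replicates 1 to 4, and 11567, 34309, 22044 and 21635 CPM in the controls. The lowest and the highest value were both controls, so the groups overlapped fully. Its log2 fold change was -0.14 (SE 0.26, 95% interval -0.68 to 0.40, edgeR adjusted p = 1.00), and the sign turned to 0.15 without control replicate 2 and to 0.04 without opto replicate 1. It is also the transcript with the most noCre tags, 304 in all, or 4.69% of the noCre pool against 1.19% of the pooled 5 min control tags. Of the 304 tags 287 were in noCre replicate 3, and without that library the share was 1.85%.

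ENSMUST00000099172, the next by tags, was far steadier. It had 11586, 10788, 11927 and 10780 CPM in opto and 10684, 14018, 13158 and 11692 CPM in control. All 8 values lay within 1.31-fold of each other, and the groups overlapped. The log2 fold change was -0.13 (SE 0.19, 95% interval -0.53 to 0.26, edgeR adjusted p = 1.00).

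ENSMUST00000082390 had 8171, 18678, 11196 and 21183 CPM in opto and 7071, 22293, 11998 and 13716 CPM in control. ENSMUST00000082388 had 4313, 9058, 5682 and 11410 CPM in opto and 3618, 10618, 6920 and 7186 CPM in control. Both were high in opto replicates 2 and 4 and control replicate 2, and low in replicate 1 of each group. Each had a log2 fold change of 0.11 (SE 0.33 and 0.34, edgeR adjusted p = 1.00), and for both the sign turned without opto replicate 4 or control replicate 1, for the former also without opto replicate 2.

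The levels of 3 of these 4 varied with the depth of the library in both groups. For ENSMUST00000182010 the Pearson correlation of log2 CPM with log2 total tags over the 8 libraries was -0.93 and Spearman's rho was -0.98 (exact permutation p = 0.000248 and 0.000397, adjusted over 8 transcripts 0.00188 and 0.00159). For ENSMUST00000082390 they were -0.90 and -0.93 (exact permutation p = 0.00238 and 0.00223, adjusted 0.00585 and 0.00595), and for ENSMUST00000082388 they were -0.89 and -0.90 (exact permutation p = 0.00293 and 0.00456, adjusted 0.00585 and 0.00913). Without the deepest and the shallowest library, both controls, Pearson's r was still -0.83, -0.83 and -0.87 in the same order. With the group means taken out it was -0.93, -0.91 and -0.90. The permutations treated all 8 libraries as exchangeable and did not use the pairs. Replicate 1 was the deepest library of both groups, so depth and replicate number cannot be fully told apart. Between the shallowest and the deepest library, where the total differed 8.50-fold, the tags of ENSMUST00000082390 differed 2.84-fold, 590 against 1673.

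For ENSMUST00000099172 the tags differed 6.81-fold between the same libraries, 371 against 2528, and its correlation with depth was -0.55 (Spearman -0.40, exact permutation p = 0.166 and 0.327, adjusted 0.189 and 0.374). Without the deepest and the shallowest library r was 0.25. Its level was lower in the deeper libraries among the controls and not among the opto libraries, each group being too small for a correlation of its own. The difference between the transcripts was not tested. Of the 8 most tagged transcripts 7 had a negative Pearson correlation, and 5 passed an adjusted p of 0.05 on it. The weakest of these 5 had an adjusted exact permutation p of 0.0452 by Pearson and 0.111 by Spearman. Its r was -0.32 without the deepest and the shallowest library. The total enters CPM as its divisor, and the part of this in the relation was not tested. Of the 58 transcripts averaging 200 tags or more, 42 had a negative correlation, with a median of -0.40. Of the 459 averaging 50 tags or more, 278 had a negative one, with a median of -0.22. Among them 87 were past 0.7 on the negative side and 41 on the positive side.

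**Figure D1:**
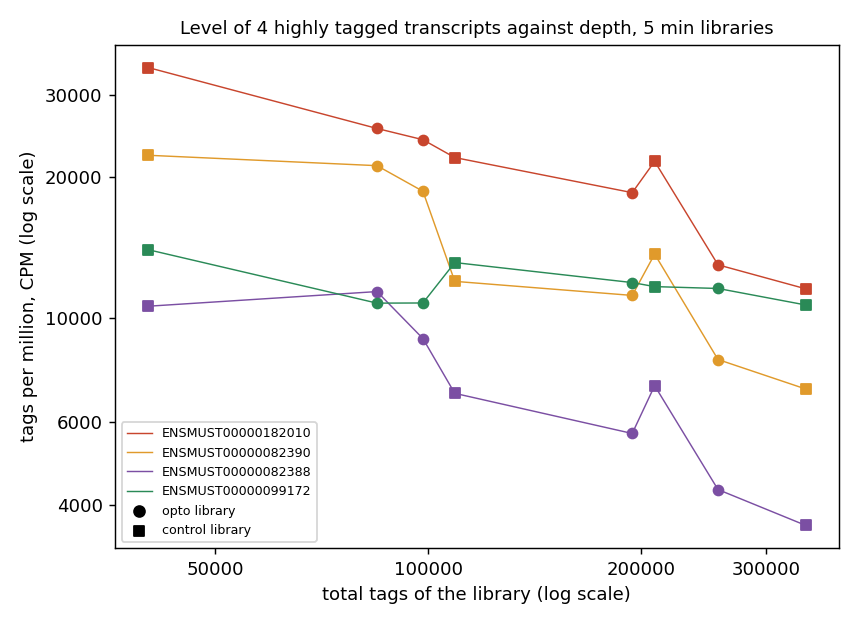
Level in CPM (log scale) of 4 of the most tagged transcripts against the total tags of each 5 min library (log scale), with circles for opto and squares for control. ENSMUST00000182010, ENSMUST00000082390 and ENSMUST00000082388 were lower in the deeper libraries of both groups, while ENSMUST00000099172 stayed between 10684 and 14018 CPM.

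Transcripts were then tested one by one, which asks whether the share of FMRP tags on any transcript differed 5 min after activation. The test covered the 2871 transcripts left by a filter on low counts, of which 2769 were listed in all 8 libraries. None passed edgeR's quasi-likelihood test at a Benjamini-Hochberg adjusted p under 0.05 (0 of 2871, 0.0%), and the smallest adjusted p was 1.00. At an unadjusted p under 0.05 there were 53 (1.85%), 28 higher (0.975%) and 25 lower (0.871%) in opto. That lies below the share of 0.05 such a test gives on average where nothing differs. The relative spread between libraries estimated by edgeR was 0.192 in this fit of 16 libraries and 0.162 in a fit of the 8 at 5 min. In the smaller fit 0 passed, with 93 of 3054 at an unadjusted p under 0.05, or 124 with the replicate block. DESeq2 and limma voom also called 0, with 31 and 109 at an unadjusted p under 0.05. The smallest p was 0.00450, and the first place in a list of 2871 needs 1.74e-05.

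Over all tested transcripts the fold changes were small and centred on 0. Their median was -0.00077 on the log2 scale, the quartiles were -0.16 and 0.17, and 1431 of 2871 were above 0. At 5 min 15 transcripts passed 2-fold in either direction, all with a mean under 20 tags. For 2219 transcripts (77.3%) the whole 95% interval lay inside a 2-fold change, and for 445 it lay inside 1.5-fold. These intervals are not adjusted for the number of transcripts.

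Precision, in the fit without the replicate block, grew with the number of tags. The median half-width of the 95% interval was 0.72 on the log2 scale for the 1373 transcripts with a mean under 20 tags, and 60.5% of them had an interval inside 2-fold. It was 0.55 for the 1039 transcripts with 20 to 50 tags and 0.44 for the 401 with 50 to 200. In the 58 transcripts with 200 tags or more it was 0.42, the largest difference was 0.64, and 57 intervals lay inside 2-fold. None of these 58 had an unadjusted p under 0.05, and 18 of them were higher in opto, with a median log2 fold change of -0.084. Higher in opto were also 165 of the 401 (median -0.024), 512 of the 1039 (median -0.0023) and 736 of the 1373 (median 0.023). The difference between these classes was not tested.

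**Figure D2:**
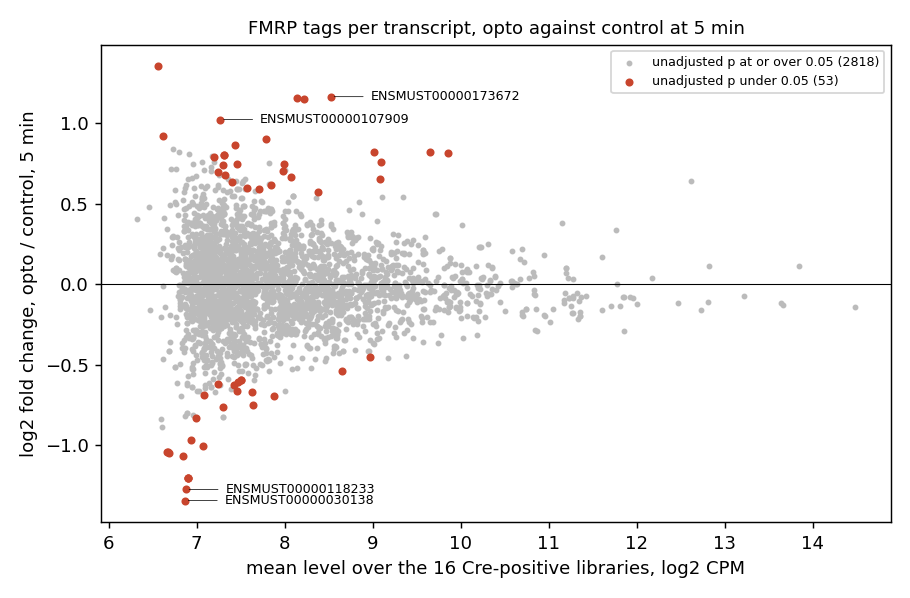
Log2 fold change of opto over control at 5 min against the mean level (log2 CPM over the 16 Cre-positive libraries) for the 2871 tested transcripts. The 53 red points have an unadjusted p under 0.05, none passed after adjustment, and the 15 differences past 2-fold lie at low levels.

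The transcripts closest to a difference were weakly tagged. The 8 with the smallest p on the higher side had 97 to 179 tags over the 8 libraries and log2 fold changes of 0.70 to 1.17. The 8 on the lower side had 68 to 90 tags and log2 fold changes of -1.35 to -1.04. All 16 went one way in 4 of 4 pairs, which their choice by p favours. Over all tested transcripts 203 (7.07%) were higher in opto in 4 of 4 pairs and 198 (6.9%) were lower. Some of the 16 nearly share their counts, as isoforms or near-identical genes can. When transcripts differing by under 10% of their tags are merged, the 8 higher ones make 7 and the 8 lower ones make 4.

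ENSMUST00000173672 had the smallest p of all. It had 29, 21, 14 and 21 tags in opto replicates 1 to 4 and 24, 2, 6 and 14 in the controls. Its level was 165, 319, 106 and 378 CPM in opto and 101, 75.6, 81.9 and 98.7 CPM in control. Opto replicates 2 and 4 were high, while opto replicate 3 exceeded the highest control only slightly. The log2 fold change was 1.17 (SE 0.38, 95% interval 0.39 to 1.94, edgeR adjusted p = 1.00). It had 0 noCre tags.

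ENSMUST00000107909 had 20, 14, 21 and 7 tags in opto and 19, 0, 7 and 9 in control. Its level was 114, 212, 160 and 126 CPM in opto and 80.3, 0, 95.5 and 63.5 CPM in control. Control replicate 2, the shallowest, listed no tag, which at that depth allows a share of up to 0.00747% (3 of 40173 tags, counting error only). The log2 fold change was 1.02 (SE 0.37, 95% interval 0.27 to 1.78, edgeR adjusted p = 1.00). It had 2 noCre tags, both in noCre replicate 3, or 0.0309% of the noCre pool against 0.00500% of the pooled controls.

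On the lower side ENSMUST00000030138 had 11, 4, 7 and 2 tags in opto and 27, 4, 12 and 23 in control. Its level was 62.6, 60.7, 53.2 and 36.0 CPM in opto and 114, 151, 164 and 162 CPM in control. The groups were well apart, but the opto values rest on few tags. The log2 fold change was -1.35 (SE 0.45, 95% interval -2.26 to -0.43, edgeR adjusted p = 1.00).

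ENSMUST00000118233 had 12, 3, 5 and 3 tags in opto and 24, 5, 12 and 18 in control. Its level was 68.3, 45.5, 38.0 and 54.0 CPM in opto and 101, 189, 164 and 127 CPM in control. The groups did not overlap. The log2 fold change was -1.28 (SE 0.44, 95% interval -2.18 to -0.37, edgeR adjusted p = 1.00).

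**Figure D3:**
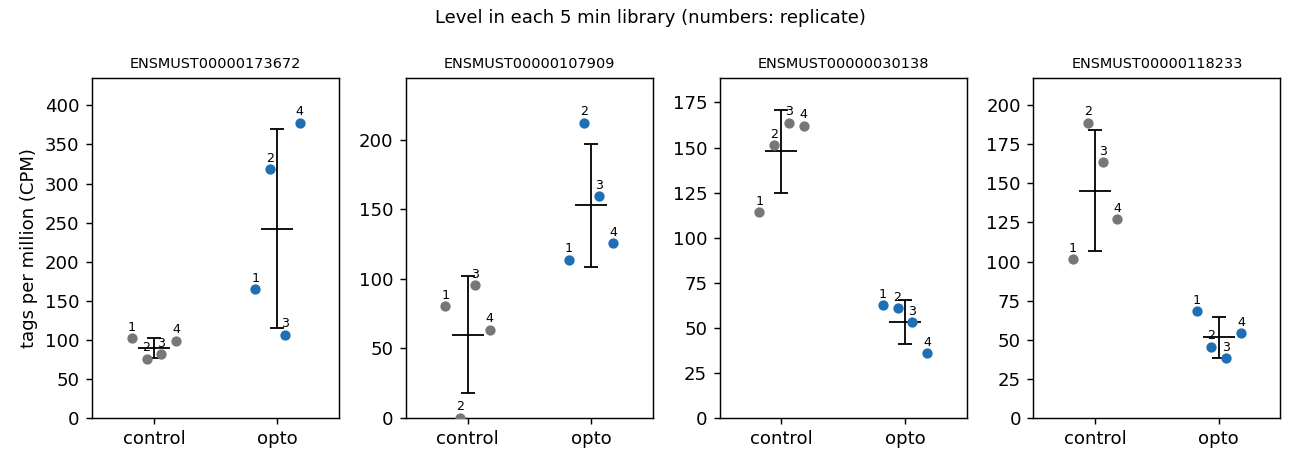
Level in CPM of the transcripts with the smallest p at 5 min, 2 higher and 2 lower in opto, in each library (points numbered by replicate), with the mean and SD over 4 libraries as bars. The 4 opto and 4 control libraries are apart in each panel, although no adjusted p passed.

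Groups that do not overlap were not rare. All 4 opto libraries lay above all 4 controls for 28 transcripts (0.975%) and below them for 36 (1.25%), 64 (2.23%) in all. At 30 min the same count was 136 (4.74%), 38 higher (1.32%) and 98 lower (3.41%) in opto. Where nothing differs, 4 against 4 exchangeable libraries come apart in a share of 0.0286 on average, ties aside. The share at 5 min lay below that. At 30 min, where depth went partly with the group, it lay above.

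With the replicate number as a block 0 transcripts passed at 5 min, and 105 had an unadjusted p under 0.05, 61 higher and 44 lower. The smallest adjusted p for the 4 transcripts above, over all alternatives run, was 0.308, for ENSMUST00000173672 with the replicate block and library depth as a covariate. With the block the SE went from 0.26 to 0.15 for ENSMUST00000182010 and from 0.19 to 0.14 for ENSMUST00000099172. It went from 0.33 to 0.16 for ENSMUST00000082390 and from 0.34 to 0.16 for ENSMUST00000082388. For ENSMUST00000173672 it went from 0.38 to 0.29, and for ENSMUST00000030138 from 0.45 to 0.40. With and without the block it was 0.37 for ENSMUST00000107909 and 0.44 for ENSMUST00000118233.

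Transcripts were also grouped by the background. The 1384 tested transcripts with 0 noCre tags had a median log2 fold change of -0.0015, with 24 (1.73%) at an unadjusted p under 0.05. They took 19.0% ± 0.608 of the tags in opto and 19.1% ± 0.599 in control (SD, n = 4). The 474 with a noCre share up to their share in the 5 min controls had a median of -0.059, with 3 (0.633%) at that p, and took 27.4% to 28.1% of the opto tags and 27.9% to 31.7% of the control tags. The 1013 with a larger share in noCre had a median of 0.031, with 26 (2.57%) at that p. The control share that separates this class from the one before also enters the fold change. A control share high by chance moves a transcript into the class before and lowers its fold change, so no response is read from these medians. Over all tested transcripts the share at that p was 1.85% and the median -0.00077. These classes rest on noCre replicate 3: without it 2446 transcripts had 0 noCre tags, 22 a share up to the control share and 403 a larger one, with 48, 0 and 5 at that p.

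The last comparison sets the early response against the later one. At 30 min opto replicates 1 to 4 held 20456, 29396, 121972 and 41721 tags, and the controls 81588, 192471, 135474 and 181115. Depth there went partly with the group, so depth and group cannot be fully told apart at 30 min or in the difference of times. The difference of the log2 fold changes, 5 min minus 30 min, passed for 1 transcript (0.0348%), and 218 (7.59%) had an unadjusted p under 0.05, 140 of them above 0 (4.88%) and 78 below (2.72%). ENSMUST00000092956 had 893, 1153, 570 and 1116 CPM in opto at 5 min and 676, 264, 833 and 748 CPM in control. Opto replicates 1, 2 and 4 were above all controls, opto replicate 3 was below 3 of them, and control replicate 2, on 7 tags, was lowest. The log2 fold change at 5 min was 0.43 (SE 0.25, 95% interval -0.08 to 0.95, edgeR adjusted p = 1.00), and opto was higher in 3 of 4 pairs. At 30 min opto had 148 to 684 CPM, on 9, 3, 27 and 9 tags in replicates 1 to 4. Control had 881 to 1419 CPM, on 66, 145, 80 and 172 tags. The log2 fold change there was -1.78, with SE 0.32 and an adjusted p by edgeR of 0.0172. That call did not pass with library depth as a covariate (edgeR adjusted p = 0.0841), nor without opto replicate 2, 3 or 4 at 30 min (0.140, 0.143 and 0.147). The difference of 2.22 (SE 0.41, edgeR adjusted p = 0.0249) did not pass when any 1 of 6 libraries was left out, 2 of them at 5 min: the adjusted p was 0.0880 without opto replicate 2 and 0.0540 without control replicate 1. Without opto replicate 2, 3 or 4 or control replicate 4 at 30 min it was 0.0911, 0.124, 0.114 and 0.0694.

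In the other direction ENSMUST00000083211 had the smallest p and did not pass. At 5 min it had 273, 303, 266 and 378 CPM in opto and 249, 529, 437 and 437 CPM in control, a log2 fold change of -0.36 (SE 0.32). At 30 min the opto mean was 1241 ± 500 CPM and the control mean 449 ± 173 CPM (SD, n = 4). The difference was -1.65 (SE 0.44, edgeR adjusted p = 0.331). It had 16 noCre tags, all in noCre replicate 3, or 0.247% of that pool against 0.0239% of the pooled 5 min controls. With the replicate block 5 transcripts passed the difference of times, 3 of them with the difference above 0 and 2 below. ENSMUST00000083211 was among those below 0 (difference -1.60, edgeR adjusted p = 0.0135) and ENSMUST00000173672 among those above (difference 2.04, edgeR adjusted p = 0.00281, against 1.93 and 0.331 without the block). With library depth added to the block neither of those below 0 passed, and the difference for ENSMUST00000083211 was -0.82 (edgeR adjusted p = 0.817), or -1.01 (0.635) with depth alone. For ENSMUST00000173672 it was 2.08 (edgeR adjusted p = 0.00147) with depth and the block, and 2.03 (0.305) with depth alone.

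The 2 times share no library, so the direction at 30 min was read for the transcripts nearest to a difference at 5 min. Of the 28 higher at an unadjusted p under 0.05, 22 (78.6%) had the opposite sign at 30 min, with a median log2 fold change there of -0.34. Of the 25 lower ones, 21 (84.0%) had the opposite sign, with a median of 0.54. Over all 2871 transcripts the share with opposite signs was 56.9%. With identical transcripts counted once, 40 of the 50 at an unadjusted p under 0.05 at 5 min had the opposite sign. Over 5 other fits, with all transcripts counted, the share at that p ran from 72.5% to 79.6%. Those fits did not include library depth as a covariate. Many of these transcripts may share tags, and the difference between these shares was not tested.

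The groups were apart at both times for 7 transcripts (0.244%), 0 of them (0.0%) with the same direction at both. All 7 were lower in opto at 5 min and higher at 30 min, with 74 to 145 tags at 5 min. Merged by near-identical counts, the 7 make 4, and their log2 fold changes at 5 min were -1.05 to -0.60.

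**Figure D4:**
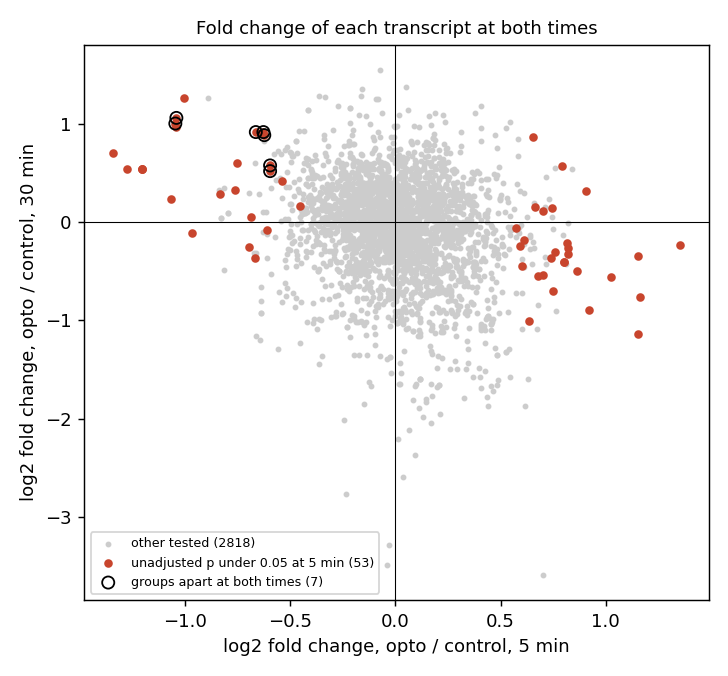
Log2 fold change of opto over control at 5 min against that at 30 min for each tested transcript. Of the 53 red points, with an unadjusted p under 0.05 at 5 min, 43 lie in the quadrants of opposite sign, and the 7 circled transcripts had groups apart at both times.

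Differences were larger at 30 min, where the libraries, above all the opto ones, were shallower. The median size of the log2 fold change was 0.16 at 5 min, with a median SE of 0.30, and 0.30 at 30 min, with a median SE of 0.39. At 30 min 176 transcripts passed 2-fold, against 15 at 5 min, and 241 (8.39%) had an unadjusted p under 0.05, 84 higher (2.93%) and 157 lower (5.47%) in opto. That split was 56 and 186 when scaled by library totals, and 101 and 117 with limma voom. In the 58 transcripts with 200 tags or more, where the median SE was 0.21 at both times, the median sizes were 0.12 and 0.20. With library depth as a covariate the 241 at an unadjusted p under 0.05 became 141, 39 higher and 102 lower, and 113 with the block as well. The median size with depth as a covariate was 0.17 at 5 min and 0.29 at 30 min, and 13 and 148 transcripts passed 2-fold. With the block as well the sizes were 0.17 and 0.30. In the 58 transcripts the sizes with depth as a covariate were 0.10 and 0.17, with a median SE of 0.20 and 0.24. With depth and the block they were 0.11 and 0.13 there, with a median SE of 0.13 and 0.21. The gap in these 58 thus narrowed, and the SE no longer matched.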

How the data were processed

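The authors deposited whole-number counts of FMRP tags per Ensembl transcript, per the file headers, unnormalized and separately for every library. Per the submitters' processing notes, cutadapt, STAR and the build mm10 were used. Their versions, the annotation, the handling of duplicates and the assignment of tags to isoforms are not given in the sources used here. Duplicates kept as tags or tags repeated over isoforms would change the counts. Of the 2871 tested transcripts 138 (4.81%) had the same counts as another in every Cre-positive library.

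Absent transcripts counted as 0, because the lowest value in any file is 1. Counts of the 16 Cre-positive libraries were fitted together with edgeR 4.0.16 in R 4.3.3 (TMM, default filterByExpr with minimum count 10 and minimum total 15, quasi-likelihood test, Benjamini-Hochberg adjusted p under 0.05), with a mean for each group. The tested transcripts held 64.8% to 70.6% of the tags of each 5 min library, and TMM factors were 0.934 to 1.07. DESeq2 1.42.0 and limma 3.58.1 were alternatives. The fit was tested on simulated data. Python 3.11.15, scipy 1.17.1, numpy 2.4.6, pandas 2.3.3 and matplotlib 3.10.9 made the permutation tests and plots. Intervals and limits cover counting error or the spread between libraries only.

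Same-numbered opto and control libraries were taken as paired from the data, since the labels only share numbers. Their deviations from the group means correlated at 0.325 to 0.617 across 459 transcripts averaging 50 tags or more, and at -0.0014 to 0.282 over all 2871. Over libraries of different numbers the first range was -0.598 to 0.441, and 6 of 8 libraries correlated best with their own number. Deviations cancel within a group, so positive correlations of same numbers go with negative ones elsewhere. The value of -0.598 was opto replicate 4 with control replicate 1, the shallowest opto and the deepest control library. The value of 0.441 was opto replicate 3 with control replicate 1. Pairing and shared depth cannot be fully told apart by this check. The main fit, with its SE and intervals, and the permutation tests do not use the pairing. It enters only through the counts of pairs and the replicate block.

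The rule for named transcripts took, at 5 min, the 8 smallest p higher and lower in opto, the 8 with the most tags at 5 min, and the smallest p above and below 0 for the difference of times. Because no table used here (gene table assembly GRCm38.p6) pairs the IDs with genes, at most 2 IDs on either side are printed for a comparison. Gene lists and genes that were to be reported by symbol were not analysed here. The libraries compared, the lists and the rules were chosen with earlier results of these data known.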

Additional observations from a re-analysis of the deposited data

Results flagged for a closer look

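The number of transcripts expected in 40173 tags was far lower in control replicate 2, at 10538, than in the other 3 controls. The gap to the next control took 0.907 of the range of the group, above Dixon's 95% critical value for 4 samples, which chance exceeds in about 1 of 20 groups. This library was also the shallowest at 5 min, and the part of its depth in the value was not tested.

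ENSMUST00000092956 responded differently at the 2 times in the test of the difference itself, 5 min minus 30 min, with a log2 value of 2.22 (SE 0.41, adjusted p by edgeR = 0.0249, range over 26 alternatives 0.000926 to 0.124). This transcript was lower in opto at 30 min (edgeR adjusted p = 0.0172, lost in 4 alternatives given in the text) and did not pass at 5 min.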

How the results depend on the processing

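At 5 min 0 transcripts passed in all 28 alternatives, with 10 at an unadjusted p under 0.05 when a mean of at least 20 tags was required and 1401 of 49900 with no filter. The difference of times, 1 transcript in the main result, gave 5 with the replicate block, 2 with library depth as a covariate and 3 with both, the last 2 settings chosen after seeing the data. It gave 0 to 1 when each library was left out in turn, and 1 in the other alternatives. The block changed no other call named here than those given in the text. Leaving out single 5 min libraries turned the sign of values that did not pass: the log2 fold change ran from -0.10 to 0.44 for ENSMUST00000082390, -0.13 to 0.37 for ENSMUST00000082388 and -0.35 to 0.15 for ENSMUST00000182010. The opto minus control difference ran from -0.831 to 0.574 percentage points for the 10 and from -1.48 to 0.385 for the 100 most tagged transcripts, from -0.457 to 1.70 for transcripts without noCre tags, and from 73.1 to 521 for the transcripts expected at a common depth. Without control replicate 2 the correlation of ENSMUST00000099172 with depth was -0.084. Sums per gene and gene lists were not run, since no table used here pairs the IDs with genes. Transcripts under 20 tags on average, 1373 of 2871, limit what 5 min data can show. The library measures, depth relations and directions at 30 min were chosen after seeing the data.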
